A study of Mus musculus with 2 samples.

Results

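Open chromatin at the starts of long noncoding RNA (lncRNA) genes was described in mouse granulocyte monocyte progenitors (GMP). Of 75148 accessible regions, 1566 were counted as open lncRNA promoter regions (2.08%). Regions were the merged rows of the series-level conservative list of accessible sites, joined where they shared 1 bp, each with the summit of its strongest row. A region was a member when its summit lay within 1 kb of an annotated start (TSS) of a gene typed lincRNA, antisense, processed_transcript or bidirectional_promoter_lncRNA in GENCODE vM21, and over 1 kb from every TSS of a protein-coding gene. The rule used position and presence in the list, and the measured fold enrichment only to choose the summit of each region. Members were set beside 17409 protein-coding promoter regions, whose summit lay within 1 kb of a protein-coding TSS, and beside 56173 distal regions, whose summit lay over 1 kb from the starts of both kinds of gene.

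The assay was ATAC-seq, in which the Tn5 transposase cuts accessible DNA. The cells were primary GMP of the C57BL/6J strain from male adults, 5 to 6 weeks old, and 50000 cells went into each library. There were 2 biological replicates of this 1 group, with separate biosamples but the same donor label. The sources used here do not give the way the cells were sorted. Replicate 1 names a pair of sequencing instruments and replicate 2 names none. With a single group and no read counts, the values below are descriptions. For the main results, values from the lists of replicate 1 and replicate 2 are given beside them. These lists share many regions, so the spread between them is not a sampling error.

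GMP are bone marrow progenitors that give rise to neutrophils and monocytes, under transcription factors such as PU.1, C/EBP proteins and RUNX1. LncRNA genes are transcribed by RNA polymerase II from promoters of their own, but do not encode proteins. Some host small nucleolar RNAs (snoRNAs) or microRNAs in their introns or exons, some act in imprinting or X inactivation, and for most no function is known. Many protein-coding promoters lie in CpG islands, while enhancers usually do not and are bound mostly by factors of the cell type.

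9 members with a transcription factor motif near the summit show the range of sequence in the set, from CpG-rich promoters of snoRNA hosts to CpG-poor sites with motifs of myeloid factors. Each line gives the summit with 50 bp to each side, 5′ to 3′ on the strand of the lncRNA gene, from RefSeq GRCm38 (mm10), with motif matches on either strand in capitals. They were chosen by hand among named members that hold a motif, after their values were seen.
Snhg20: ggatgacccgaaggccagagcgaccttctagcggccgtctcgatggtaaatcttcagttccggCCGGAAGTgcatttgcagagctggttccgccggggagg
Snhg15: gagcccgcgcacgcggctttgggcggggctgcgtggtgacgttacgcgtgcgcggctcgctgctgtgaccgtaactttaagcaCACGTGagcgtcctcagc
Kcnq1ot1: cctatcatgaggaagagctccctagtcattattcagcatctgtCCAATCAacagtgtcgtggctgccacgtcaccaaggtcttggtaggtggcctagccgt
Pvt1: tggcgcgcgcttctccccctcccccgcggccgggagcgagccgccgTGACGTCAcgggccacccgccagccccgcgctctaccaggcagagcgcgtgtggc
Gm27017: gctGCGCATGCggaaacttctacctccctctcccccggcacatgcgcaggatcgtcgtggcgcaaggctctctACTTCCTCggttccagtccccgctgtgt
Mir99ahg: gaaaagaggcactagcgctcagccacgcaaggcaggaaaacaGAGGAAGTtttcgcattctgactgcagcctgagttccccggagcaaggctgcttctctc
Gm14005: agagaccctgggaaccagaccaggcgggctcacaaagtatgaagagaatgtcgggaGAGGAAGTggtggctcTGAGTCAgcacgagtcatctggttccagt
2210408F21Rik: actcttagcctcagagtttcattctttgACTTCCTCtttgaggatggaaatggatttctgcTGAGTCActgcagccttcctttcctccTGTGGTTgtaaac
Gm26626: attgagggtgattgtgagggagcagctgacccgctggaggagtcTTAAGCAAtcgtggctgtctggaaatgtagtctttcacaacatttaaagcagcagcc
In the first 5 windows the capitals mark an ETS match at Snhg20 (chr11:117076717-117076817, plus strand), an E-box at Snhg15 (chr11:6528732-6528832, minus strand), an NFY match at Kcnq1ot1 (chr7:143296557-143296657, minus strand), a CRE at Pvt1 (chr15:62037942-62038042, plus strand), and an NRF1 then a PU.1 match at Gm27017, a gene with a start in the Dleu2 locus (chr14:61648914-61649014, plus strand). In the other 4 they mark a PU.1 match at Mir99ahg (chr16:77329222-77329322, plus strand), PU.1 then AP-1 at Gm14005 (chr2:128429324-128429424, minus strand), PU.1, AP-1 and RUNX in that order at 2210408F21Rik (chr6:31284575-31284675, plus strand) and a CEBP match at Gm26626 (chr16:92612643-92612743, plus strand). In these windows 0 pairs of matches overlapped. A match describes the letters and shows no binding.

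The labelled cell type was checked at protein-coding genes. Of 10 GMP genes, among them Spi1, Cebpa, Mpo and Elane, 10 had an open promoter, against 0 of 3 hepatocyte genes, 1 of 3 muscle genes, 1 of 4 T cell genes, 2 of 4 B cell genes, 2 of 4 erythroid genes, 2 of 3 megakaryocyte genes and 2 of 3 neural genes. The conservative list was made by the authors from both replicates. The lists of replicate 1 and replicate 2 held 65423 and 53686 merged regions, of which 1372 and 1160 met the same rule. Read depth is unknown, so a region missing from a list is one that did not pass its threshold, and not closed chromatin.

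Most annotated lncRNA genes had no region of the conservative list at a start. A member lay at a TSS of 1387 of 9793 lncRNA genes (14.2%), and a further 1263 (12.9%) had an open start only within 1 kb of a protein-coding TSS, which the rule leaves out. The other 7143 (72.9%) had no region at a start, while 13654 of 21951 protein-coding genes (62.2%) had an open promoter. The 9793 include 552 lncRNA genes on the Y chromosome, which had 0 members among 19 regions. Genes typed processed_transcript had a member in 176 of 790 cases (22.3%), lincRNA genes in 834 of 5854 (14.2%), antisense genes in 375 of 2959 (12.7%) and bidirectional genes in 2 of 190 (1.05%). The types are those of the annotation, and Ptprv, named for a phosphatase, is among the processed_transcript genes with a member. Bidirectional genes are defined by their closeness to a protein-coding start, and 158 of the 190 (83.2%) were open beside one. By the nearest TSS, 942 members (60.2%) belonged to lincRNA genes, 412 to antisense, 210 to processed_transcript and 2 to bidirectional genes. Genes with a member had a mean of 2.08 annotated transcripts, against 1.42 for genes without a region at a start, with a median of 1 in both groups, and more starts give more chances to meet the rule. Their longest spliced transcript had a median of 1164 bp, against 905 bp for genes without a region.

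Member summits lay farther from the nearest annotated start than those of protein-coding promoter regions. The distance is to the nearest start of any annotated transcript. It therefore depends on how many starts are annotated, and the part this plays was not tested. The summit lay within 100 bp of the TSS in 509 members (32.5%), against 56.1% of protein-coding promoter regions. It lay over 500 bp away in 476 members (30.4%), against 16.9% of protein-coding promoter regions, and the median distance was 249.5 bp for members and 78 bp for protein-coding promoter regions. Summits fell upstream of the TSS in 948 members (60.5%) and in 65.8% of protein-coding promoter regions, so both sets were skewed to the same side. The 100 bp just upstream held 24.0% of member summits and 41.0% of protein-coding summits. Whether a member with a distant summit is the promoter of its lncRNA or another element near its start was not tested.

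**Figure D1:**
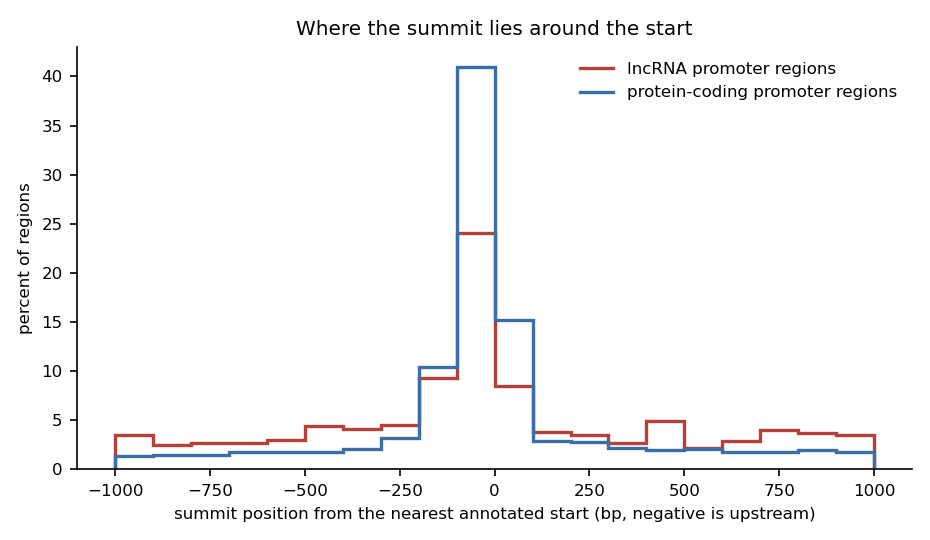
Position of the summit relative to the nearest annotated start, in bins of 100 bp, as the percent of lncRNA promoter regions (red) and of protein-coding promoter regions (blue). Both peak in the 100 bp upstream of the start, at 24.0% and 41.0%, and the lncRNA promoter regions have the higher tails on both sides.

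Most members lay in CpG-poor sequence. CpG content was taken over the summit and 250 bp to each side, and a region was called CpG-rich at a GC content of at least 50% with an observed over expected CpG ratio of at least 0.6. By this measure 223 members (14.2%) were CpG-rich, against 58.5% of protein-coding promoter regions, 2.18% of distal regions and 15.5% of all regions. In the replicate 1 and replicate 2 lists the share was 15.7% and 16.6% of members, 60.9% and 63.1% of protein-coding promoter regions, and 2.32% and 2.46% of distal regions. The 3 groups thus kept the same order, far apart, in each list. The series-level share of members, 14.2%, lay below both replicate values. The replicate lists share many regions, so their difference is not a sampling error of these shares. The median CpG ratio was 0.321 in members, 0.693 in protein-coding promoter regions and 0.217 in distal regions, and the median GC content was 50.1%, 59.7% and 46.7% in the same order. Among gene types, 23.8% of the members at processed_transcript genes were CpG-rich, 13.2% at lincRNA genes and 11.4% at antisense genes.

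**Figure D2:**
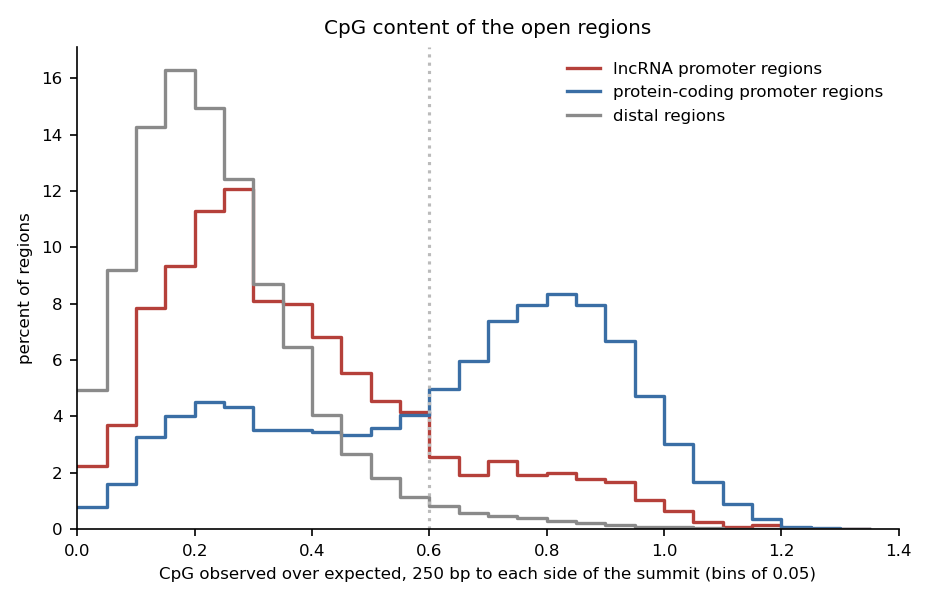
Observed over expected CpG ratio within 250 bp of the summit, in bins of 0.05, as the percent of lncRNA promoter regions (red), protein-coding promoter regions (blue) and distal regions (grey), with the ratio of 0.6 dotted. The lncRNA promoter regions peak at a low ratio, like the distal regions, and carry a tail to the right where most protein-coding promoter regions lie.

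CpG-rich and CpG-poor members differed in strength and in how often both replicates listed them. Strength is given here as the authors' fold enrichment of the strongest row, used to describe and rank regions within a list. CpG-rich members were 765 bp wide in the median, at a median fold of 8.81, and 84.3% overlapped a region in the lists of both replicates. CpG-poor members were 474 bp wide in the median, at a median fold of 7.80, and 65.7% were in both. Outside the set, 89.6% of CpG-rich and 68.7% of CpG-poor protein-coding promoter regions were in both lists, and 71.4% of CpG-rich and 61.2% of CpG-poor distal regions were. Median fold was 9.88 and 7.34 in CpG-rich and CpG-poor protein-coding promoter regions, while in distal regions it ran the other way, at 7.56 and 7.93.

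Members close to the annotated start were more like protein-coding promoters than those far from it. With the summit within 100 bp of the TSS, 21.8% were CpG-rich, against 15.8% at over 100 to 500 bp and 4.20% at over 500 to 1000 bp. The replicate 1 list gave 24.7%, 16.1% and 5.20% for these distances, and the replicate 2 list gave 24.5%, 17.2% and 5.36%. Median fold was 8.64 within 100 bp, 7.81 at the middle distance and 7.44 at the far one, and the share in both replicates was 76.6%, 67.0% and 61.3%. Protein-coding promoter regions showed the same order, with 73.1%, 53.7% and 18.0% CpG-rich. At the same distance from a start, the CpG-rich share was thus lower in members than in protein-coding promoter regions in each of the 3 classes.

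**Figure D3:**
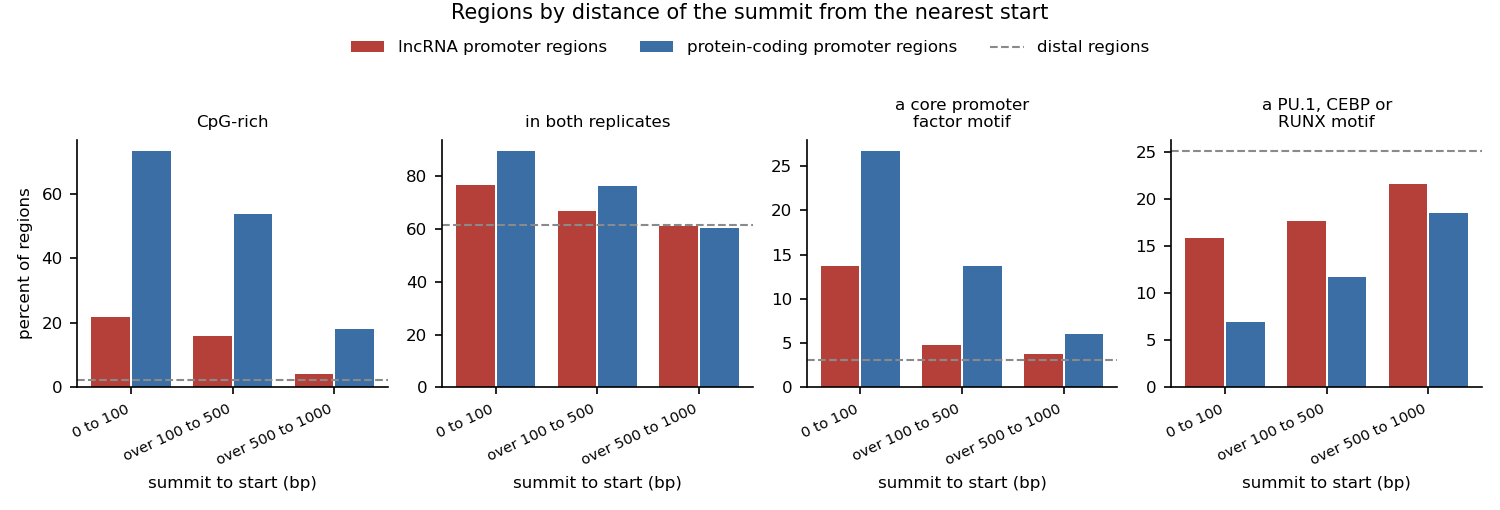
Percent of lncRNA promoter regions (red) and protein-coding promoter regions (blue) that are CpG-rich, that are in the lists of both replicates, that hold a core promoter factor motif and that hold a PU.1, CEBP or RUNX motif, by distance of the summit from the nearest start, with the distal regions as a dashed line. The first 3 shares are highest within 100 bp of the start in both groups, and the last is highest over 500 bp away, at 21.6% and 18.5%.

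Shares with motifs of ubiquitous promoter factors and of myeloid factors ran in opposite directions with distance from the start. Exact matches to 14 consensus sequences were sought on both strands within 50 bp of the summit. The core promoter group held ETS (CCGGAAGT), CRE (TGACGTCA), KLF/SP (GGGGCGGGG), NRF1 (GCATGCGC), NFY (CCAATCA) and YY1 (AAGATGGCG), and the myeloid group held PU.1 (GAGGAAGT), CEBP (TTGCNNAA) and RUNX (TGTGGTT). ETS and PU.1 share the letters GGAAGT, but 1 site cannot match both. A core promoter motif lay in 13.8% of members within 100 bp of the TSS, in 4.82% at over 100 to 500 bp and in 3.78% at over 500 bp. The share was 3.13% in distal regions and 7.05% in all regions. A PU.1, CEBP or RUNX motif lay in 15.9%, 17.7% and 21.6% of members at these distances. The share was 25.1% in distal regions and 21.5% in all regions, so the farthest members were close to all regions. Protein-coding promoter regions ran the same way, with core motifs in 26.7%, 13.7% and 6.07%. Myeloid motifs lay in 7.01%, 11.7% and 18.5% of them. In the replicate 1 and replicate 2 lists the core share of members within 100 bp was 13.3% and 14.8%, and over 500 bp it was 3.71% and 4.42%. The myeloid motifs lay in 69 of 458 and 62 of 412 members within 100 bp in these lists, and in 87 of 404 and 75 of 317 (21.5% and 23.7%) over 500 bp away, so the 2 orders held in each list.

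Over all members, the motif shares lay between those of the other groups for most factors. PU.1 matched 6.90% of members, 3.45% of protein-coding promoter regions, 8.83% of distal regions and 7.54% of all regions. CEBP matched 7.54% of members, 4.80% of protein-coding promoter regions, 10.7% of distal regions and 9.27% of all regions, and RUNX matched 4.92%, 2.53%, 7.38% and 6.21% in that order. KLF/SP, bound by Sp and Krüppel-like factors at GC boxes, matched 2.55% of members, 8.56% of protein-coding promoter regions, 0.80% of distal regions and 2.64% of all regions. CTCF, the insulator protein, matched 4.66% of members, 1.77% of protein-coding promoter regions, 6.02% of distal regions and 5.01% of all regions. AP-1 (TGANTCA) matched 7.02% of members, 2.81% of protein-coding promoter regions, 6.49% of distal regions and 5.65% of all regions. In the replicate 1 and replicate 2 lists AP-1 matched 7.22% and 7.07% of members, and 6.56% and 6.96% of distal regions, so this difference from distal regions was small and close to the spread between lists. Within 100 bp of the summit AP-1 matched 10.2% of members and 10.6% of distal regions, so the order of the pair depended on the window. The E-box (CACGTG) matched 3.83% of members, 3.80% of protein-coding promoter regions and 2.24% of distal regions. In the wider window it matched 6.13%, 6.99% and 4.06% of these groups. Among all regions it matched 2.64%, and 4.79% in the wider window. YY1 matched 1 member (0.06%), 0.72% of protein-coding promoter regions and 0.15% of distal regions, and in the wider window 0.26%, 1.85% and 0.23%. Among all regions it matched 0.28%, and 0.61% in the wider window. No motif of the 14 matched in 900 members (57.5%).

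**Figure D4:**
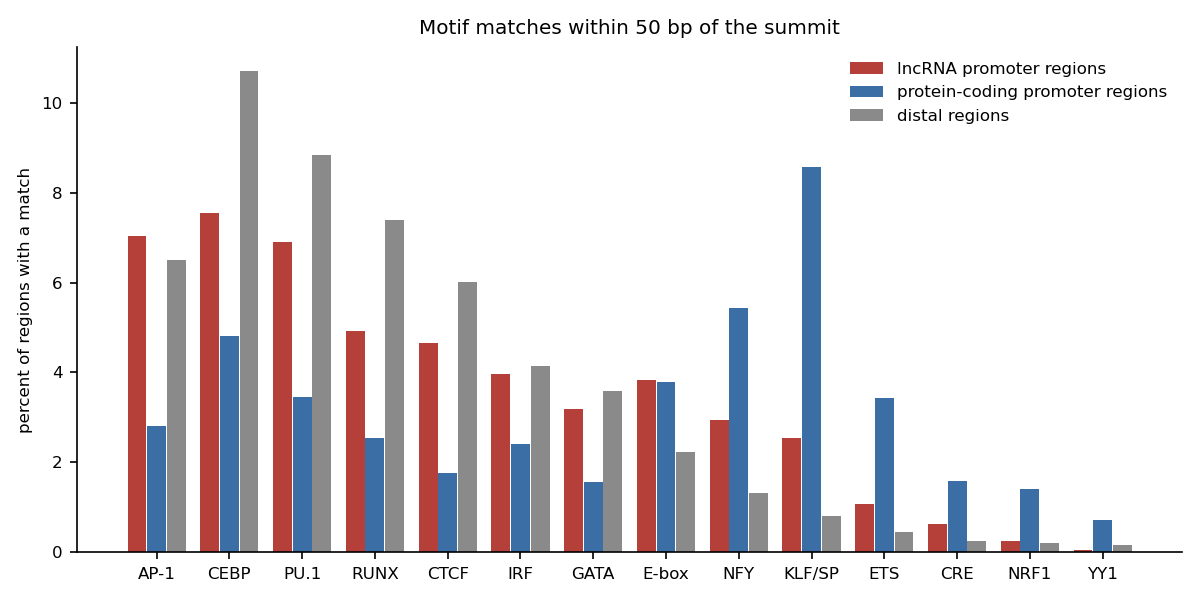
Percent of lncRNA promoter regions (red), protein-coding promoter regions (blue) and distal regions (grey) with an exact match to each motif within 50 bp of the summit. PU.1, CEBP, RUNX and CTCF are lower in lncRNA promoter regions than in distal regions and higher than in protein-coding promoter regions, and KLF/SP, ETS, NFY, CRE and NRF1 run the other way.

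Sequence class separated the motifs within the set. Among the 223 CpG-rich members, KLF/SP matched 7.62%, NFY 6.73%, ETS 3.14% and PU.1, CEBP or RUNX together 4.04%. Among the 1343 CpG-poor members, KLF/SP matched 1.71%, NFY 2.31%, ETS 0.74% and PU.1, CEBP or RUNX together 20.7%. CpG-poor distal regions held 1 of these 3 myeloid motifs in 25.5% of cases, and CpG-rich protein-coding promoter regions in 4.39%. Among CpG-poor protein-coding promoter regions the share was 18.5%, so the share for CpG-poor members lay between those of the other CpG-poor groups. Base composition sets how often a motif occurs, and its part in these shares was not tested.

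Members were mostly intergenic. The summit lay in no protein-coding gene body in 1162 members (74.2%), antisense to one in 369 (23.6%), in the sense direction in 31 and in both in 4. Such a gene body held 25.8% of member summits and 50.7% of distal summits, and the lincRNA type excludes most overlap with such genes by annotation. The median distance to the nearest protein-coding TSS was 23.4 kb for members and 16.6 kb for distal regions. The lncRNA was divergent to its nearest protein-coding gene, head to head on the opposite strand, in 531 members (33.9%). Close to such a gene this was more frequent, with 64 of 145 members (44.1%) at 1 to 2 kb and 73 of 158 (46.2%) at 2 to 5 kb, against 136 of 427 (31.9%) at 5 to 20 kb, 181 of 607 (29.8%) at 20 to 100 kb and 77 of 229 (33.6%) beyond. Of the 229 members beyond 100 kb, 12 (5.24%) were CpG-rich. The nearest protein-coding gene had an open promoter for 81.0% of members and for 82.1% of distal regions.

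Soft-masked repeat sequence held 128 member summits (8.17%), 5.38% of protein-coding promoter summits, 10.4% of distal summits and 9.22% of all summits, so the share in members was close to that of all regions. The 128 had a median fold of 7.20, against 7.95 for the other 1438, and 62.5% of them were in both replicates, against 68.9% of the others. Members were spread over the autosomes and the X chromosome at 1.70% to 2.88% of the regions on each, with 35 on X. The Y chromosome had 0 members among 19 regions.

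The replicates listed members about as often as other regions. In the lists of both replicates, 1071 of 1566 members (68.4%) had an overlapping region, against 80.9% of protein-coding promoter regions, 61.4% of distal regions and 66.1% of all regions. Replicate 1 held 1301 members and replicate 2 held 1129, with 230 in replicate 1 alone, 58 in replicate 2 alone and 207 (13.2%) in neither. In the looser lists of the 2 replicates together, 97.3% of members were found. The share in both followed strength, at 31.4%, 55.6%, 74.5%, 90.3% and 99.6% of members in the weakest to the strongest of 5 equal classes of fold set over all regions, against 28.0%, 45.7%, 67.9%, 90.1% and 98.8% of all regions. The fold of the 1071 shared members correlated between the lists on the log2 scale (Pearson r 0.908, Spearman rho 0.899), as did that of all 49669 shared regions (0.896 and 0.886), as a description over regions that share libraries. Fold was higher in the replicate 1 list for 91.2% of shared members and 92.1% of all shared regions, so the 2 lists have different scales. Median fold was 7.94 for members (quartiles 5.80 and 10.5), 8.78 for protein-coding promoter regions and 7.93 for distal regions. In the replicate 1 list it was 8.79, 9.51 and 9.03 for these groups, and in the replicate 2 list 7.51, 8.28 and 7.58. Members and distal regions thus differed by less than the 2 lists did.

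Named lncRNAs were taken from lists by known role, and some genes are on several lists. Each count can be read against the 14.2% of all lncRNA genes with a member. That share is lowered by the 552 genes on the Y chromosome, which had 0 members. The snoRNA hosts, which carry snoRNAs in their introns and are made in most dividing cells, had a member at 7 of 14 annotated genes, and 6 more were open beside a protein-coding start. All 7 of these regions were CpG-rich and in the lists of both replicates, with a median fold of 10.6. Snhg17 had a fold of 12.9 in the series-level list, 14.1 in replicate 1 and 10.7 in replicate 2. Snhg15, shown above with its E-box, had 12.9, 12.8 and 11.9, and Snhg20, with the ETS match, had 7.77, 8.74 and 6.47. Snhg20 was thus the lowest of these 3 in each list. Gas5, whose region has its summit 216 bp from a Zbtb37 start, is one of the 6 left out by the rule, and Snhg14, a long imprinted host transcript, had no region at a start.

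MicroRNA host genes were open at 8 of 10 annotated genes, with 11 regions and a median fold of 5.88. Mir142hg, host of the blood cell microRNA miR-142, had a CpG-poor region with folds of 4.38, 4.34 and 4.34 in the series-level, replicate 1 and replicate 2 lists. Mir155hg, host of miR-155, had a pair of CpG-rich regions, and the stronger had 8.67, 8.72 and 7.15. These values place both genes in the lower and middle part of the range of members. Mir99ahg, host of miR-99a, had 9.69, 9.04 and 9.27 at the region with the PU.1 match. Mir670hg had the highest value of the list at 18.1, 18.3 and 15.5. Dleu2, host of miR-15a and miR-16-1, had a region at a CpG-rich start with 5.04, 4.96 and 4.82. A stronger region, with 10.2, 11.9 and 8.52, had starts of both Dleu2 and Gm27017, on opposite strands, within 1 kb. Mir17hg, host of the miR-17 cluster, had a region at 613 bp upstream with 5.88, 5.93 and 5.55, and another 24 bp from its start with 3.397 in the series-level list, 3.44 in replicate 2 and no region in replicate 1. Mir22hg, host of miR-22, had one at 918 bp upstream with 4.70, 4.85 and 4.46. Mir124a-1hg, host of a neuronal microRNA, had a fold of 5.74 in the series-level list and was in neither replicate list.

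Widely expressed lncRNAs had a member at 12 of 19 genes, with 22 regions and a median fold of 7.91. Firre, an X-linked RNA of nuclear organisation, had folds of 18.1, 18.2 and 15.8 in the series-level, replicate 1 and replicate 2 lists, and Dancr had 15.4, 15.5 and 14.9. Neat1, the scaffold of paraspeckles, had 3.41, 3.32 and 3.39, and Malat1, a nuclear speckle RNA, had 5.20, 5.47 and 4.89 at the region 11 bp from its start. Neat1 and Malat1 are among the most abundant lncRNAs of many cells, and both lay below the lower quartile of members (5.80) at those regions. A stronger Malat1 region, CpG-rich and 931 bp upstream of the start, lay above that quartile, with 6.05, 6.37 and 5.41. Pvt1, downstream of Myc, had 3 regions, and the one at its first start, with the CRE match, had 8.85, 8.19 and 7.87. Trp53cor1, also named lincRNA-p21, had 8.59, 9.05 and 7.15.

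The X inactivation centre was open at several noncoding genes in these male cells. Jpx had folds of 12.8, 11.9 and 12.0 in the series-level, replicate 1 and replicate 2 lists, and Tsix, the antisense partner of Xist, had 14.5, 14.2 and 10.7. Ftx had 4 regions, the strongest with 14.0, 13.3 and 13.5. Xist itself, the RNA that coats the inactive X of females, had no region at a start in the conservative list.

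Imprinted lncRNAs had a member at 4 of 9 genes, all 4 in both replicates. Kcnq1ot1, the antisense RNA of the Kcnq1 domain, had 13.5, 13.4 and 12.2 in the series-level, replicate 1 and replicate 2 lists at the region with the NFY match. Meg3 had 10.1, 10.1 and 8.68 at 774 bp downstream of the TSS, and Airn had 7.58, 7.24 and 6.96 at 664 bp upstream. Nespas had 7.78, 10.1 and 5.04, so its replicate values differed by more than those of the other 3. H19, Rian, Mirg, Nctc1 and Snhg14 had no region at a start.

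**Figure D5:**
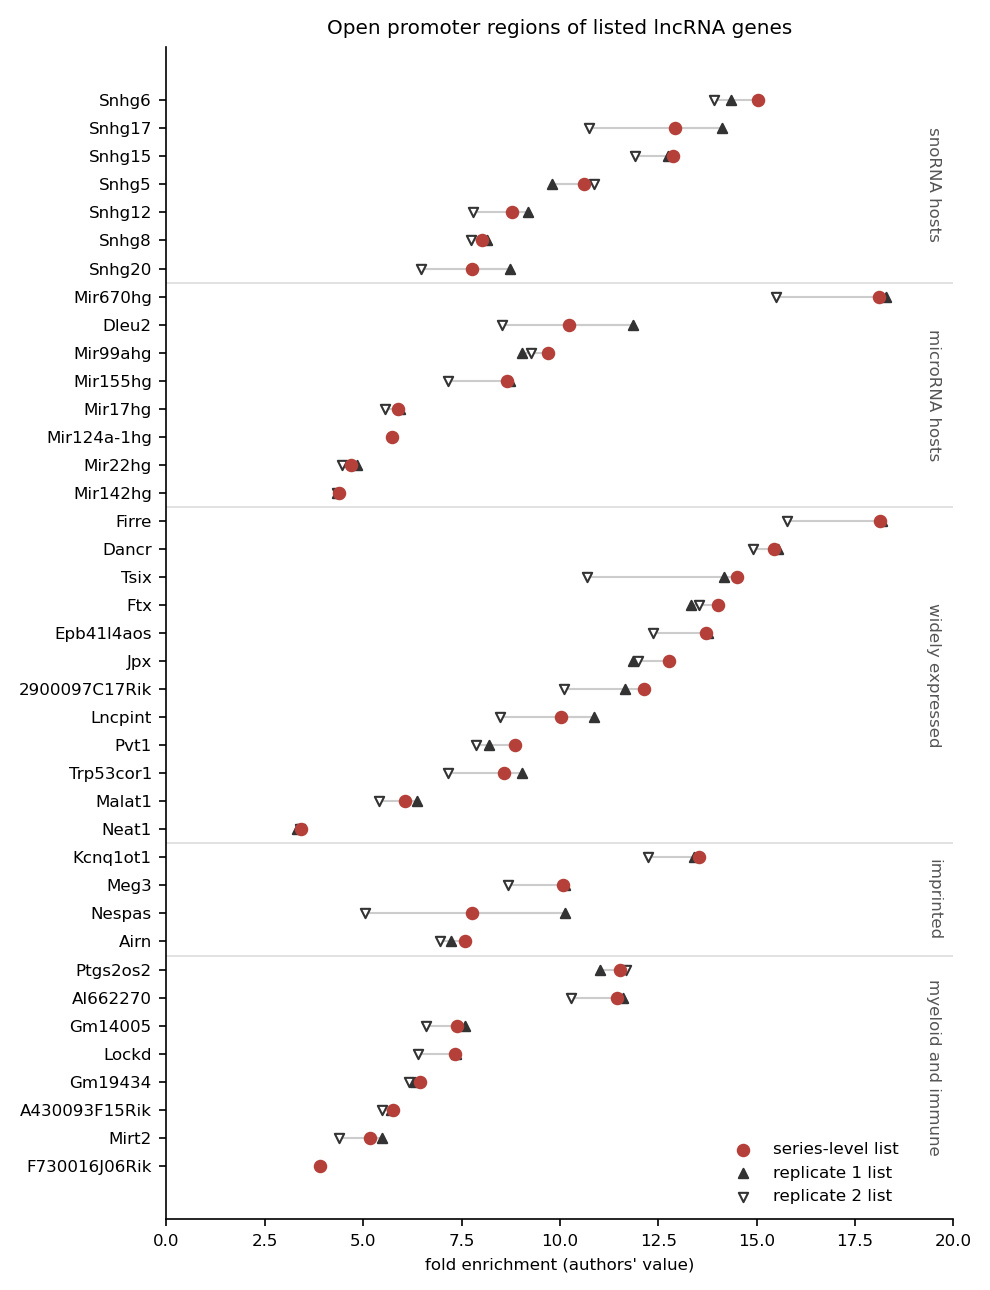
Fold enrichment at the strongest member of each listed lncRNA gene, with the series-level list (red circles), the replicate 1 list (filled triangles) and the replicate 2 list (open triangles), joined by a line. A gene with a red circle alone was in neither replicate list; Mir670hg and Firre are at the upper end at 18.1, and Neat1 at the lower end at 3.41.

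Lists of lncRNAs from blood and immune cells had a member at 8 of 16 myeloid and immune genes and 2 of 7 blood genes. Both of these blood genes are on other lists too, Lockd on the myeloid and immune list and Pvt1 on the widely expressed list. The 14 regions of the myeloid and immune list had a median fold of 5.52, 9 of them were in both replicates, and 1, at Lockd, was CpG-rich. Ptgs2os2, also named lincRNA-Cox2 and known from activated macrophages, had 11.5, 11.0 and 11.7 in the series-level, replicate 1 and replicate 2 lists. Gm14005, known as Morrbid, which acts on the survival of short-lived myeloid cells, had 7.40, 7.59 and 6.59 at the region 8 bp from its start, where the PU.1 and AP-1 matches lie. Both of these genes were in each list. AI662270 had 3 regions, the strongest with 11.5, 11.6 and 10.3. Lockd, downstream of Cdkn1b, had 7.35, 7.36 and 6.40. Mirt2 had a stronger region with 5.17, 5.48 and 4.38, and F730016J06Rik had 3.91 in the series-level list and was in neither replicate list.

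Lists from other tissues also held open genes. Neural lncRNAs had a member at 5 of 18 genes, with folds of 5.64 to 10.1 in the series-level list, and lncRNAs of other tissues at 2 of 11. The highest neural value was at Meg3, which is also on the imprinted list, and the next was 8.02. Mir124a-1hg is on both the neural and the microRNA host list. Hand2os1, the divergent partner of the heart gene Hand2, had 14.4, 15.6 and 11.2 in the series-level, replicate 1 and replicate 2 lists. This region lay 15.8 kb from the Hand2 start. Hox cluster lncRNAs had a member at 2 of 12 genes. Hoxd3os1 had 12.6, 14.6 and 9.53, and Gm53 had 8.24 in the series-level list, 9.64 in replicate 1 and no region in replicate 2. These lists are short, and a list's share was not tested against that of all genes.

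For some members the nearest protein-coding gene encodes a myeloid regulator. Of 41 myeloid transcription factor genes, 12 were nearest to at least 1 member, while of all 21951 protein-coding genes 1190 (5.42%) were. These 12 genes had 21 members in all, with a median fold of 7.50 and 16 in both replicates. The distance to the gene was over 100 kb for 5 of the 21, up to 1326 kb for Gm13470 and Zeb2. The lists were short and were not tested against all genes. How often distal regions have these genes nearest is not given here, so the count cannot be read as particular to members. Gm26692, 36.3 kb from the start of Gfi1, a repressor needed for neutrophil development, had 12.4, 13.4 and 9.93 in the series-level, replicate 1 and replicate 2 lists. Gm26626, antisense within Runx1 and 82.8 kb from its nearest start, had 8.94, 10.1 and 6.90 at the region with the CEBP match. Both regions were thus in each list, and nearness does not show that they act on these genes. Myb had 3 nearby lncRNA genes with a member, Gm33619, Gm26577 and Gm40608, and the first, 25.9 kb away, had 8.24, 8.49 and 7.04. Gm33619 was in both replicate lists and the other 2 in neither. Junos, divergent to Jun, had 3 regions. The strongest, 23.5 kb from the Jun start, had 8.08, 8.81 and 6.89. The region closest to that start, at 1.14 kb, had 2.75, 2.76 and 2.72. Of 25 genes on the list of myeloid receptors and surface markers, Cd34 alone was nearest to members, and Gm32250, 56.4 kb away, had 16.6, 15.4 and 15.6. Of 23 genes on a list drawn up for primary granules, Fcnb and Anxa1 were each nearest to 1 member, and the list was not checked for where each protein is stored.

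The highest folds fell at lncRNAs that were on none of the lists by known role. Gm13274 had 25.6, 25.5 and 20.3 in the series-level, replicate 1 and replicate 2 lists, BC002059 had 23.9, 22.8 and 21.8, and Gm48857 had 22.0, 20.6 and 19.8. BC002059, Gm6712 and Gm5165 all lie on chromosome 17 and are among the 10 highest, at 23.9, 21.4 and 19.9 in the series-level list. Their summits lay 72, 85 and 77 bp upstream of the TSS. All 10 were in both replicate lists, and 2 of them, Gm13274 and 5730405O15Rik, were CpG-rich. The widest region, 2289 bp, was at 2410080I02Rik near Klf9, with 6.74, 6.79 and 6.23, and 4 of the 5 widest were CpG-rich.

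Some genes had several members, which can lie at the same annotated start. One member lay at 1192 genes, 2 at 168 genes, 3 at 22, 4 at 4 and 5 at 1 gene, and 49 members served the starts of 2 or more genes. The gene with 5 was 2310001H17Rik, near Cd69, whose regions ranged from 3.02 to 5.00 in the series-level list. The gene 2210408F21Rik, 1 of whose regions also lies at a start of Lncpint, had 3, and the strongest, with the PU.1, AP-1 and RUNX matches, had 12.0, 13.1 and 9.20. Several regions at 1 gene share its annotation and are not independent of each other.

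Regions on both sides of the 1 kb limit were listed in both replicates. Just inside the 1 kb limit, Gm43522 at 999 bp had 8.65, Gm11537 at 997 bp had 12.6 and Gm3294 at 996 bp had 8.24 in the series-level list. Just outside, 4930556J02Rik at 1001 bp had 9.12 and E230013L22Rik at 1003 bp had 8.83, with 0610012D04Rik between them in both distance and fold. The fold did not separate the 3 inside from the 3 outside. Of the 207 members in neither replicate list, the highest was at 9330175M20Rik with a fold of 11.7 and a CTCF match, followed by Gm29266 with 10.6 and 9130015A21Rik with 9.63.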

How the data were processed

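ATAC-seq of 2 GMP replicates was deposited as lists of accessible sites in mm10, per the submitters' file list. Each row carries a fold enrichment, a ratio deposited by the authors over a denominator that the labels do not name. The aligner, the peak caller and whether reads were shifted for Tn5 are likewise not given in the sources used. Ranked lists, with 32 per-sample columns, were not used. Rows sharing 1 bp were merged, and all transcripts of GENCODE vM21 genes gave the TSSs. Sequence came from RefSeq GRCm38.p6, the same assembly as mm10. Members, lists and motifs were chosen with earlier results of these data known; Mirt1 and Mirt2 (not microRNA hosts) and Ptprv (a phosphatase gene) were taken off lists after their values were seen. Named genes were those of the lists with a member, the 10 highest folds, the 5 widest, genes with 3 or more members, neighbours of listed myeloid genes, 3 on each side of 1 kb and the highest folds in neither replicate; examples of these are printed. No test between groups was possible. The merging, classing and motif search were checked on simulated data. Python 3.11.15, pandas 2.3.3, NumPy 2.4.6, pysam 0.24.0 and matplotlib 3.10.9 were used.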

Additional observations from a re-analysis of the deposited data

How the results depend on the processing

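No paired analysis was possible because the series has 1 group. Counts and shares over the set, other than motif shares, are given here where they moved by more than a set limit. The limit was 1.5 times for counts and 1 SD of the 2 replicate values otherwise, and the cause was not tested. Values from 1 replicate's list alone, and the count with protein-coding transcripts alone, are given whether or not they moved. From 1 replicate's list alone, members numbered 1160 to 1372, with a median fold of 7.51 to 8.79, 15.7% to 16.6% CpG-rich, 7.59% to 8.24% with a masked summit, 24.1% to 24.5% inside a protein-coding gene, and 11.0% to 12.7% of lncRNA genes with a member. The series-level replicated list, which is looser, gave 2455 members, a median fold of 5.84, 43.7% in both replicates, 13.3% CpG-rich, 8.72% masked, 26.7% genic and 20.4% of genes. Members at or above the median fold of all regions (8.09) numbered 756, with a median fold of 10.5, 91.1% in both, 17.2% CpG-rich, 7.67% masked, 21.7% genic and 7.72% of genes. A window of 500 bp gave 18.6% CpG-rich, 24.4% genic and 10.6% of genes, and one of 2500 bp gave 2850 members, 9.86% CpG-rich, 29.3% genic and 23.1% of genes. Requiring over 2500 bp from protein-coding starts gave 13.4% CpG-rich, 20.9% genic and 12.5% of genes. With gene starts in place of transcript starts, 20.4% were CpG-rich, 7.43% masked and 38.2% genic. The series-level IDR-thresholded list gave 24.9% genic. Protein-coding transcripts alone as protein-coding starts, an alternative chosen after seeing the data, gave 1623 members and 28.0% genic. In the looser list of each replicate 97.3% were in both, a sequence window of 100 bp to each side of the summit gave 18.8% CpG-rich, and 1.98% were masked over at least 50% of the region. Of the values for single motifs, 30 moved and 12 did not. With motifs sought within 100 bp of the summit, a longer window with more places to match, the shares of members that grew over 1.5 times came to 12.7% for CEBP, 8.37% for RUNX, 7.54% for IRF, 7.02% for GATA, 6.13% for the E-box, 4.53% for KLF/SP, 1.72% for ETS, 1.21% for CRE, 0.89% for NRF1 and 0.26% for YY1. With the 2 other windows and the replicated list, for which the groups were compared again, 9.86% to 18.6% of members were CpG-rich, against 51.2% to 58.5% of protein-coding promoter regions and 1.92% to 2.18% of distal regions. Depth is unknown, so weak members in particular may be missed, and the count of members rests on the threshold of the list. No test was run for outlying samples, since 1 group of 2 holds too few.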
